A study of Mus musculus with 14 samples.

Results

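L-selectin ligands are sulfated, sialylated and fucosylated glycans, and 8 genes for enzymes that build them were followed here across lymphatic endothelium taken from mouse lymph nodes. The genes were the fucosyltransferase genes Fut7 and Fut4, the sulfotransferase genes Chst4 and Chst2, the chain branching and extending enzyme genes Gcnt1 and B3gnt3, and the sialyltransferase genes St3gal4 and St3gal6. They were found on the arrays by their symbol. All 8 of 8 were present, with 12 probes among the 55681 non-control probes, out of 34741 genes by name. For a gene with more than 1 probe, the probe with the highest mean log2 signal over all arrays was used. That rule reads the mean level and not the difference between groups, so a high level is no finding. The 8 genes were selected on their known roles and with measured values in view, the LCM differences of Fut7 and Chst4 in an earlier reading of these arrays. The adjusted p-values of Fut7 and Chst4 in that comparison are therefore descriptions and not independent evidence.

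L-selectin on lymphocytes binds to sugars displayed on mucin-like proteins of high endothelial venules, the blood vessels through which lymphocytes enter a lymph node from the blood. The tetrasaccharide that it recognises is sulfated sialyl Lewis x, which needs a sialic acid added by sialyltransferases, a sulfate added by sulfotransferases and a fucose added by fucosyltransferases to chains that Gcnt1 and B3gnt3 products start or extend. Lymphatic sinuses are a different vessel bed, lined by lymphatic endothelium, and carry lymph through the node.

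The study measured RNA of endothelial cells from the lymphatic medullary sinus, on the efferent side of the node, and from the subcapsular sinus, which receives afferent lymph, in C57Bl/6 mice with no treatment or mutation named. Laser-capture microdissection (LCM) of CD31-labelled cells, in frozen sections also stained for a macrophage antigen, gave 5 medullary and 5 subcapsular samples of 50 cells each. Fluorescence-activated sorting (FACS) of digested nodes, with antibodies to lineage antigens, CD73 and podoplanin, gave 2 medullary and 2 subcapsular samples of 1200 cells each. Each sample was amplified with SuperAmp and hybridised to a 1-colour Agilent array, 14 arrays in all. The FACS samples came from more lymph node sites than the LCM samples. The ages of the mice, the gates that separated the sinuses in the sort, and which samples share an animal are not given in the sources used here, so p-values measure the spread between these samples only. In such bulk samples, fewer cells of a type and less RNA per cell cannot be told apart.

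Values are log2 signals over the 75th percentile of the array, so that 0 is the signal at that percentile. Between 67.4% and 75.3% of probes passed the scanner's call of well above background on the medullary LCM arrays and 50.8% to 69% on the subcapsular LCM arrays, against 69% and 79% on the medullary FACS arrays and 66.3% and 77.9% on the subcapsular FACS arrays. Slide 1 held medullary LCM replicates 1 to 3 and all subcapsular LCM arrays, and the 4 FACS arrays shared slide 2 with medullary LCM replicates 4 and 5. Of the lymphatic markers, Prox1 was above background on all 14 arrays. Lyve1 passed on 3 of 5 LCM arrays of either sinus, on 0 of 2 medullary FACS arrays and on 1 of 2 subcapsular ones. Flt4 passed on 3 of 5 LCM arrays of either sinus, on 1 of 2 medullary FACS arrays and on 0 of 2 subcapsular ones. The FACS arrays also carried genes of salivary gland and other epithelium. The summed level of 9 such markers, as a multiple of the 75th percentile, was 239 to 947 on medullary and 1310 to 1390 on subcapsular FACS arrays, against 4.59 to 19.1 on medullary and 1.91 to 50.1 on subcapsular LCM arrays. The part of these differences in the results below was not tested.

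The probes of Fut7 and Chst4, on which the LCM results turn, are shown by their first 30 bases, and both Fut7 probes are given because their values are compared below. On mouse build mm9 the Fut7 probe used lies at chr2:25281802-25281861 on the plus strand, its other probe at chr2:25281521-25281580 on the plus strand, and the Chst4 probe at chr8:112553145-112553204 on the minus strand. All 60 bases of each probe lie within these positions, and whether they fall in coding or untranslated sequence is not annotated in the sources used here.
Fut7 probe used: gggttgtggaaggacagtgcagatgattct
Fut7 other probe: ttttcctgttcagtgagcaggaattcagga
Chst4 probe: tatcagtaatcagaaacaggaagcaaacaa

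Because Fut7 and Chst4 were high on the same LCM arrays, the 250 bases before their RefSeq starts (build GRCm38.p6) are shown as well. RefSeq gives 2 starts for Fut7, with windows at chr2:25422992-25423241 and chr2:25423444-25423693 on the plus strand, and 1 for Chst4, with its window at chr8:110039335-110039584 on the minus strand. Capitals mark matches on either strand to the motifs searched, which were the Ets-type motif AGGAAG, the TATA box TATAAA, the GC box GGGCGG, the motif TGANTCA of the Fos and Jun family and the kappaB motif. No matches overlapped in these windows.
Fut7 start 1: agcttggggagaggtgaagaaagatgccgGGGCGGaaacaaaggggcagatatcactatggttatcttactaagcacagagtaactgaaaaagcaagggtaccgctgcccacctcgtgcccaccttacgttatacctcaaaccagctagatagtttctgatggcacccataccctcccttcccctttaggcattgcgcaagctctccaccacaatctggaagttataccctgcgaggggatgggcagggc
Fut7 start 2: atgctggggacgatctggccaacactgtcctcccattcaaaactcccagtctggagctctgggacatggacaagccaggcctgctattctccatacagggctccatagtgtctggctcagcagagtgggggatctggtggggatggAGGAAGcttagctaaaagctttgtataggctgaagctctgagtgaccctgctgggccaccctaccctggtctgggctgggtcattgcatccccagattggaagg
Chst4 start: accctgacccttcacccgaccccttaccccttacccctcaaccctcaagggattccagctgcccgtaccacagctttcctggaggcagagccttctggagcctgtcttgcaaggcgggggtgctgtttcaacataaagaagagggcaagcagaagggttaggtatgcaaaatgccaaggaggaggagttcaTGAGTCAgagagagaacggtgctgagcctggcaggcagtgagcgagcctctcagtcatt

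The windows of the 2 genes shared none of the 5 motifs. The first Fut7 window held GGGCGG 221 bases before the start, a motif in 32.7% of 32851 windows of this length, and the second held AGGAAG 104 bases before the start, a motif in 29.5% of windows. The Chst4 window held TGANTCA 59 bases before the start, a motif in 6.75% of windows. None held the kappaB motif or TATAAA, which occur in 7.25% and 12.4% of windows. A match describes these letters only.

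Fucosyltransferases add the fucose of sialyl Lewis x. Fut7, whose product adds the fucose that completes it, read 2.87, 3.23, 2.54, 3.27 and 5.24 in medullary LCM replicates 1 to 5, against −3.81, −1.89, −3.62, −3.75 and −3.57 in subcapsular LCM replicates 1 to 5. It read −1.05 and −2.61 in medullary FACS replicates 6 and 7, against −4.37 and −0.77 in subcapsular FACS replicates 6 and 7. Every medullary LCM array lay above every other array of the series for this gene, and the 2 FACS groups overlapped. In LCM the log2 difference was 6.76 ± 0.64 (SE, 5 arrays a sinus, limma adjusted p = 0.00385), which was rank 3 among 27356 genes ordered from the most positive difference down. The background in that comparison was 0.168% of genes called higher, 0.175% called in either direction and 1.03% higher with no overlap between groups, beside 0.00731% called lower and 3.09% with no overlap in either direction. In FACS the difference was 0.74 ± 1.5 (SE, n = 2 per sinus, limma adjusted p = 0.726).

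**Figure D1:**
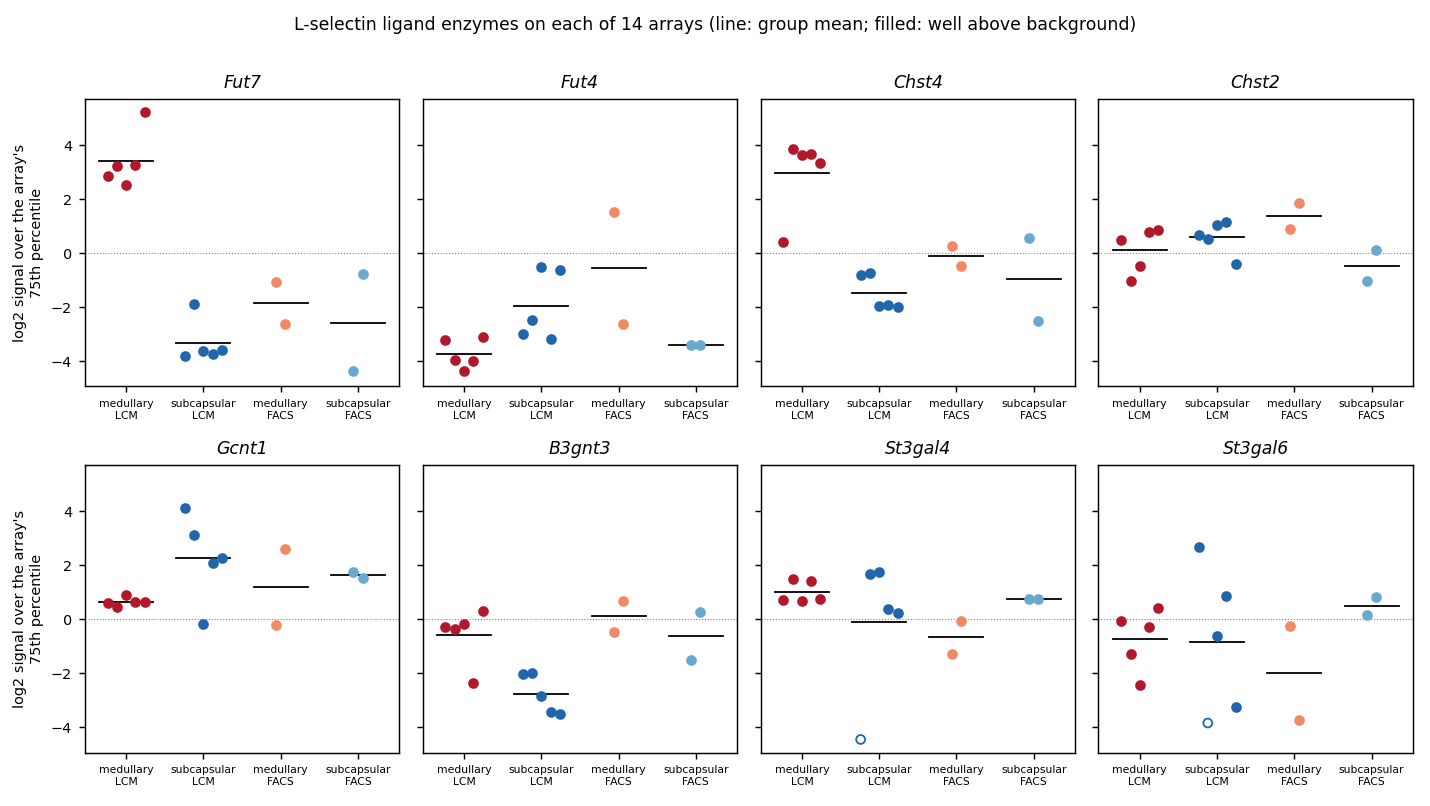
Log2 signal over the array's 75th percentile (vertical axis) of the 8 enzyme genes on each of 14 arrays, with medullary and subcapsular LCM (5 arrays each) and medullary and subcapsular FACS (2 arrays each) from left to right. Lines are group means, and open circles mark the values not well above background. Fut7 and Chst4 are the genes whose 5 medullary LCM points lie clear of the 5 subcapsular LCM points.

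Fut7 thus stood high in 1 of 4 groups. Comparing isolations within the medullary sinus, a comparison added after the data were seen, Fut7 fell by 5.26 on the log2 scale in FACS relative to LCM (SE 0.97, 2 against 5 arrays, limma adjusted p = 0.00668), where 6.53% of 29658 genes were called. The ranges were −2.61 to −1.05 in medullary FACS and 2.54 to 5.24 in medullary LCM. On slide 2 alone, which held 2 arrays of each, the difference was −6.08 and missed the threshold (limma adjusted p = 0.116), and no gene was called there. In the subcapsular sinus the same comparison gave 0.75 ± 0.97 (SE, limma adjusted p = 0.776), where 1.16% of genes were called. The interaction, defined as medullary minus subcapsular in FACS less the same in LCM, was −6.01 ± 1.38 for Fut7 and just missed the threshold (SE, limma adjusted p = 0.0524), beside 1.29% of 29657 genes called and 21.3% with an unadjusted p under 0.05. It passed under 10 of 27 alternatives, with an adjusted p of 0.0264 to 0.316 over all of them, the highest without subcapsular FACS replicate 7 (−4.21).

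The other Fut7 probe did not give the same picture on every array. It read 1.03, 2.22, 1.8, 3.13 and 3.84 in medullary LCM replicates 1 to 5, against −5.99, −2.99, −4.43, 1.62 and −5.15 in subcapsular LCM replicates 1 to 5. Subcapsular replicate 4, at 1.62, lay inside the medullary range on this probe and among the low arrays on the probe used. The LCM difference on this probe was 5.79 ± 1.3 and did not pass (SE, limma adjusted p = 0.148). On the medullary FACS arrays it read −4.6 and −5.25, neither well above background, against −2.09 and 0.85 on the subcapsular FACS arrays. Both probes therefore placed medullary LCM above medullary FACS, and they put the 2 FACS groups in opposite order. Over the 14 arrays the probes had Pearson's r of 0.78 and Spearman's rho of 0.71, given as a description across arrays that share slides and groups.

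**Figure D2:**
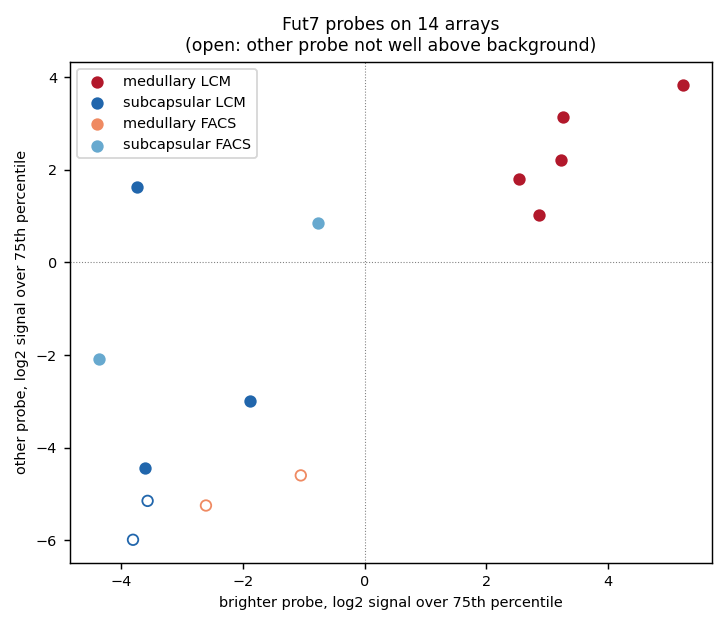
Log2 signal over the 75th percentile of the brighter Fut7 probe (horizontal axis) and of the other Fut7 probe (vertical axis) on 14 arrays, coloured by group. Open circles mark arrays on which the other probe was not well above background. The 5 medullary LCM arrays are high on both probes, and 1 subcapsular LCM array is high on the other probe only.

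Fut4, a fucosyltransferase that acts beside Fut7 in leukocytes and venules, did not follow Fut7. It read −3.21, −3.97, −4.36, −3.99 and −3.12 in medullary LCM replicates 1 to 5, against −3, −2.48, −0.51, −3.17 and −0.64 in subcapsular LCM replicates 1 to 5. It read 1.53 and −2.61 on the medullary FACS arrays, against −3.42 and −3.41 on the subcapsular FACS arrays. The LCM groups overlapped, and medullary FACS replicate 6 had the highest value of the series. The LCM difference of −1.77 ± 0.67, the FACS difference of 2.87 ± 1.57 and the interaction of 4.64 ± 1.44 did not pass (SE, limma adjusted p = 0.359, 0.257 and 0.112). Medullary FACS replicates 6 and 7 decide the FACS difference, the interaction and the medullary FACS minus LCM difference. Without replicate 7 the FACS difference was 4.94, the interaction 6.72 and called (limma adjusted p = 0.00888), and medullary FACS minus LCM 5.26 and called (limma adjusted p = 0.00369), against 3.19 and no call with all arrays (limma adjusted p = 0.0837). Without replicate 6 these were 0.8, 2.57 and 1.12, with none called. Its 2 probes were nearly unrelated over the 14 arrays (r = 0.04), and on the other probe the FACS difference was −2.19, so Fut4 has no settled direction in FACS.

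Sulfotransferases add the sulfate. Chst4, whose product is the sulfotransferase named for high endothelial cells, read 0.4, 3.85, 3.64, 3.69 and 3.35 in medullary LCM replicates 1 to 5, against −0.8, −0.74, −1.96, −1.93 and −2 in subcapsular LCM replicates 1 to 5. It read 0.25 and −0.49 on the medullary FACS arrays, against 0.55 and −2.5 on the subcapsular FACS arrays. The LCM groups did not overlap, with medullary replicate 1 standing between the other medullary arrays and the subcapsular ones. The LCM difference was 4.47 ± 0.73 (SE, n = 5 per sinus, limma adjusted p = 0.0471). Without medullary replicate 1 it was 5.12 (limma adjusted p = 0.00909), and without any 1 of the other 9 arrays the call ended, with an adjusted p of up to 0.0983. The FACS difference was 0.85 ± 1.24 (SE, n = 2 per sinus, limma adjusted p = 0.629). The FACS minus LCM difference within the medullary sinus, −3.11 ± 0.95, and the interaction, −3.62 ± 1.34, did not pass (SE, limma adjusted p = 0.071 and 0.162).

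Chst2, the gene of a more widely expressed N-acetylglucosamine sulfotransferase, had no such split. It read 0.48, −1.03, −0.46, 0.77 and 0.87 in medullary LCM replicates 1 to 5, against 0.69, 0.52, 1.03, 1.15 and −0.39 in subcapsular LCM replicates 1 to 5. The FACS values were 0.9 and 1.85 in medullary and −1.04 and 0.11 in subcapsular samples, groups that did not overlap, as for 69.6% of 27639 genes in that comparison (43% higher and 26.7% lower in medullary samples). Fut4 was likewise higher and St3gal4 and St3gal6 lower without overlap, so that 4 of the 8 genes were apart in FACS. Neither the LCM difference of −0.47 ± 0.56 nor the FACS difference of 1.84 ± 0.76 passed (SE, limma adjusted p = 0.785 and 0.183). Chst2 differed by 1.33 in LCM on its other probe and by 0.26 with the percentile taken over probes above background on all arrays, so its LCM direction is not settled.

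**Figure D3:**
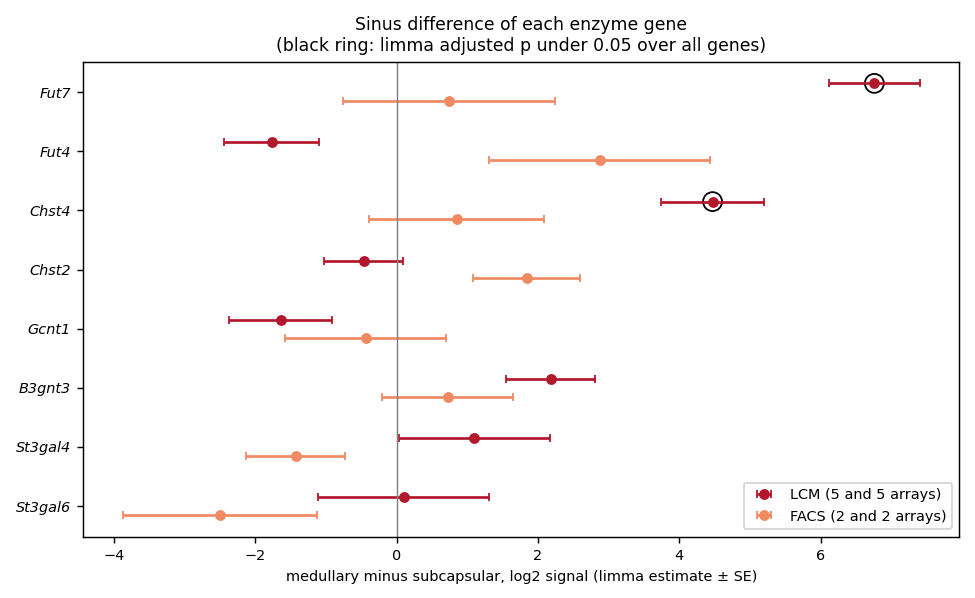
Medullary minus subcapsular difference in log2 signal (horizontal axis, limma estimate with SE bars) of the 8 enzyme genes, in LCM (5 arrays per sinus) and in FACS (2 arrays per sinus). Black rings mark a limma adjusted p under 0.05 over all genes, which Fut7 (6.76) and Chst4 (4.47) reached in LCM and no member reached in FACS.

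Gcnt1 and B3gnt3 act earlier, on the O-glycan chain that carries the ligand. Gcnt1, the gene of the core branching enzyme, read 0.61, 0.45, 0.89, 0.63 and 0.65 in medullary LCM replicates 1 to 5, against 4.12, 3.13, −0.18, 2.1 and 2.26 in subcapsular LCM replicates 1 to 5. The medullary values were close together (0.65 ± 0.16, SD, n = 5) and lay inside the wide subcapsular range (2.29 ± 1.6, SD, n = 5). Its LCM difference of −1.64 ± 0.73 did not pass (SE, limma adjusted p = 0.421). The FACS values of −0.2 and 2.6 in medullary samples lay on both sides of 1.76 and 1.52 in subcapsular samples. Its other probe, above background on all 14 arrays, gave another picture (r = 0.22 with the probe used). There medullary LCM values spread from −4.14 to −0.19, and subcapsular LCM values from −2.01 to 1.15. Its FACS values were −1.85 and −2.03 in medullary samples, against 0.51 and −0.14 in subcapsular ones. These groups did not overlap, and 26.7% of genes in that comparison were lower in medullary samples without overlap.

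B3gnt3, the gene of the enzyme that extends O-glycan cores in high endothelial venules, came next after Chst4 among the 8 genes in the size of its positive LCM difference. It read −0.3, −0.35, −0.18, −2.35 and 0.32 in medullary LCM replicates 1 to 5, against −2.02, −1.97, −2.84, −3.43 and −3.51 in subcapsular LCM replicates 1 to 5. Medullary replicate 4 fell among the subcapsular values, and the other medullary arrays lay above all of them. The difference of 2.18 ± 0.63 did not pass (SE, limma adjusted p = 0.241). It was 2.91 and passed (limma adjusted p = 0.0432) with the percentile taken over probes above background on all arrays, a scaling that moved the median difference of all genes to 0.81, against 0.08 as reported. Measured from those medians the 2 values do not differ by more than their SE. The FACS values were −0.46 and 0.7 in medullary and −1.49 and 0.28 in subcapsular samples, which overlapped.

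Sialyltransferases cap the chain before fucose is added. St3gal4 read 0.72, 1.51, 0.69, 1.44 and 0.75 in medullary LCM replicates 1 to 5, against −4.45, 1.67, 1.76, 0.4 and 0.22 in subcapsular LCM replicates 1 to 5. Subcapsular replicate 1 was not well above background, and without it the LCM difference was 0.01, against 1.1 ± 1.07 with it (SE, limma adjusted p = 0.74). The FACS values were −1.29 and −0.05 in medullary samples and 0.76 in both subcapsular samples, a difference of −1.43 ± 0.7 that did not pass (SE, limma adjusted p = 0.224). St3gal6 ranged from −2.44 to 0.41 in medullary LCM and from −3.84 to 2.7 in subcapsular LCM samples, the widest range of the 8 genes in any group, and its difference was 0.1 ± 1.21 (SE, limma adjusted p = 0.986). It read −0.26 and −3.74 on the medullary FACS arrays, against 0.17 and 0.83 on the subcapsular FACS arrays, and that difference, −2.5 ± 1.37, did not pass (SE, limma adjusted p = 0.257). It was −4.23 without medullary FACS replicate 6 and −0.76 without medullary FACS replicate 7.

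By group mean, Fut7 and Chst4 were highest in medullary LCM, then in medullary FACS, subcapsular FACS and subcapsular LCM, and for both genes the ranges of all neighbours but the first pair overlapped. Unlike Fut7, Chst4 in medullary LCM was not clear of every other group. Its medullary LCM replicate 1, at 0.4, lay below subcapsular FACS replicate 6, at 0.55. B3gnt3 was highest in medullary FACS, then in medullary LCM, subcapsular FACS and subcapsular LCM, and there the last pair alone did not overlap. Of the 8 genes, 2 were called in LCM, both higher in the medullary sinus, where 0.168% of genes were called higher. Counting signs, 5 of 8 were higher, with a median difference of 0.6, against 52.6% and 0.08 over all genes tested. In FACS 5 of 8 had a positive difference, with a median of 0.73, against 59.5% and 0.73 over all genes. No gene of 27639 was called in FACS by limma (31.9% had an unadjusted p under 0.05), and none of the 8 passed. With trend and robust moderation limma called 1799 genes and with all 14 arrays in 1 fit 4485, and none of the 8 was among them. Across FACS minus LCM over both sinuses none of the 8 passed, beside 3.86% of 29657 tested genes called, with 2.04% of tested genes called lower in FACS. Fut7 had the lowest adjusted p there (−2.25 ± 0.69, SE, limma adjusted p = 0.103) and B3gnt3 a difference of 1.42 ± 0.54 (SE, limma adjusted p = 0.197).

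The slide and the row of the slide gave the following for the 2 called genes. On slide 1 alone, with 3 medullary and 5 subcapsular LCM arrays, the difference was 6.21 for Fut7 (limma adjusted p = 0.013) and 4.12 for Chst4 (limma adjusted p = 0.0872). With slide as a block it was 6.21 and 4.12 again (limma adjusted p = 0.0115 and 0.0891). That equality is fixed by the design, since all subcapsular LCM arrays were on slide 1, and it is no further check. In row 1 of the slides, with 2 medullary and 4 subcapsular arrays, group means differed by 7.52 for Fut7 and 4.88 for Chst4, and in row 2, with 3 medullary arrays and 1 subcapsular array, by 6.45 and 4.63. In FACS the sinus and the row cannot be told apart.

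**Figure D4:**
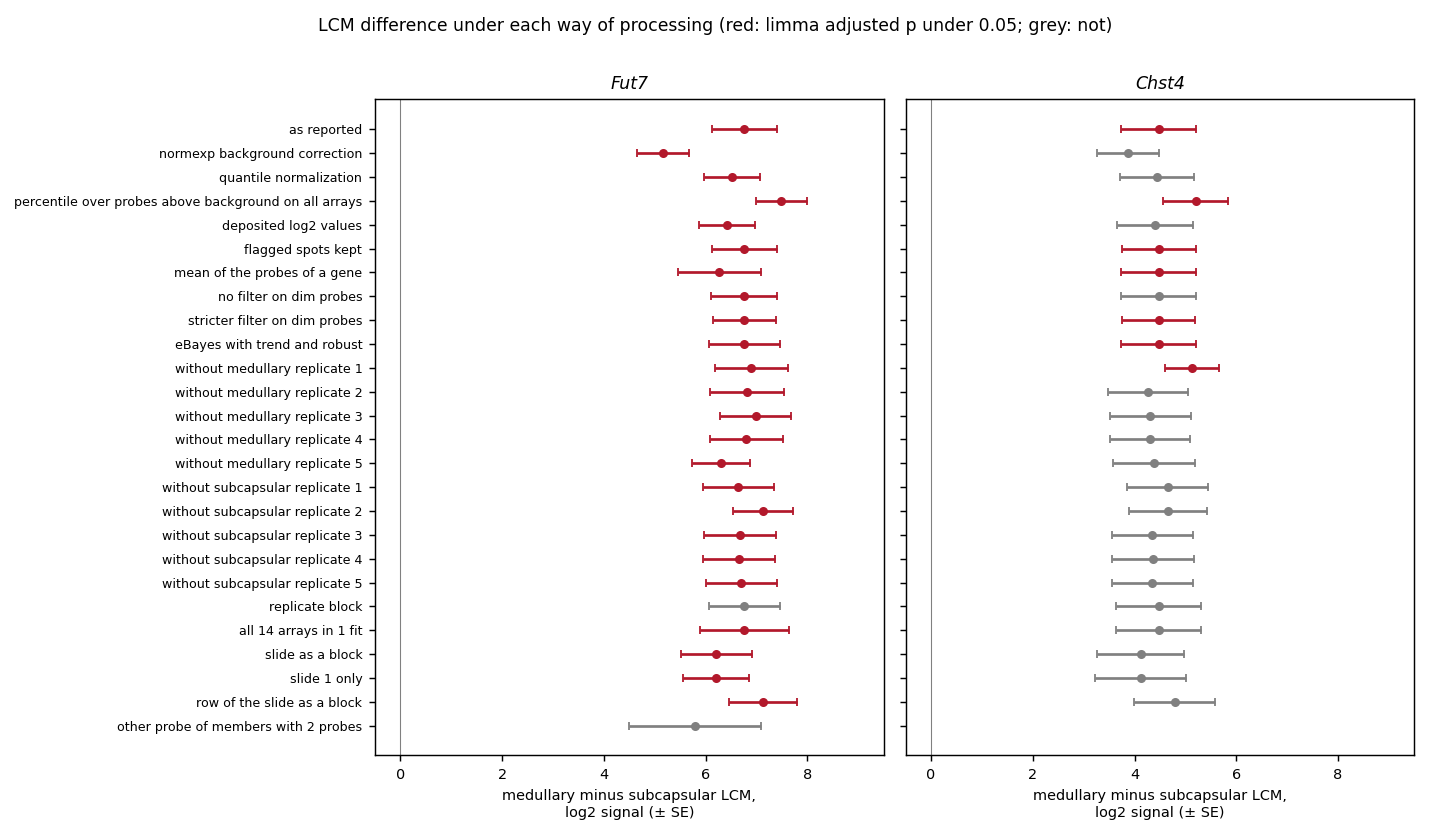
Medullary minus subcapsular LCM difference in log2 signal (horizontal axes, with SE bars) of Fut7 and Chst4 under each way of processing, arrays left out included. Red points passed a limma adjusted p under 0.05 and grey ones did not. Fut7 lies between 5.16 and 7.49 throughout, and Chst4 between 3.87 and 5.2.

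Of 29598 genes in the fits, those whose names are only probe, clone, accession or predicted-gene identifiers were left out here. The remaining genes whose signal followed Fut7 most closely over the 14 arrays were Esam (r = 0.94), an adhesion molecule of endothelial junctions, Itih3 (r = 0.91), a hyaluronan-binding protein of plasma, and Slc16a7 (r = 0.9), a monocarboxylate transporter. For Chst4 they were Prdx6b, Bmp3 and Olfr1138, each with r = 0.92. Fut7 and Chst4 themselves had r = 0.81 and rho = 0.59. These values describe 14 arrays that fall into 4 groups, and a gene high in the medullary LCM group alone scores high by that fact.

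The sugars need protein scaffolds, and 8 scaffold genes were examined. In LCM 6 of the 7 tested had a positive difference, with a median of 1.55 against 0.08 over all genes, and none passed. Glycam1, a secreted mucin of high endothelial venules, read 7.48, 7.64, 7.63, 7.72 and 7.88 in medullary LCM replicates 1 to 5, against 4.81, 7.28, 5.35, 6.56 and 5.46 in subcapsular LCM replicates 1 to 5. It was thus high in both sinuses, with groups that did not overlap and a difference of 1.78 ± 0.55 (SE, limma adjusted p = 0.274). On the FACS arrays it read 5.55 and −2.94 in medullary and 6.09 and 7.62 in subcapsular samples, so that 1 medullary FACS array stood far below the other 13 arrays. Emcn, a sialomucin of venous and capillary endothelium, differed by 5.08 ± 1.19 in LCM (SE, limma adjusted p = 0.161), with values of −0.51 to 2.51 in medullary samples and −6.43 to −0.58 in subcapsular ones, of which 2 of 5 were above background.

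Spn, a sialomucin of leukocytes, had a difference of 4.24 ± 1.28, and Madcam1, an adhesion molecule that can carry L-selectin ligand, one of 1.07 ± 0.56 (SE, limma adjusted p = 0.265 and 0.488). Cd34, a sialomucin of blood endothelium, differed by 1.55, Podxl2, which encodes endoglycan, by 0.15, and Cd300lg, which encodes nepmucin, by −0.03. Podxl, the gene of podocalyxin, was above background on 1 of 5 arrays of each sinus and did not enter the LCM comparison. In FACS Podxl2 was at least 96.5-fold higher in medullary samples, at 0.73 and 1.5, against −7.59 and −6.02 with neither subcapsular array above background, and it did not pass (limma adjusted p = 0.0647). Its interaction was called (limma adjusted p = 0.00964), with a size that the dim subcapsular FACS signal leaves unfixed. Of the selectin genes, Selp was above background on 3 of 5 medullary LCM arrays, at 0.47, −1.43 and 0.48, and on 0 of 5 subcapsular LCM arrays, and it was not called (limma adjusted p = 0.437). Its other 2 medullary values, −5.51 and −6.34, lay within the subcapsular range of −6.38 to −4.05.

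**Figure D5:**
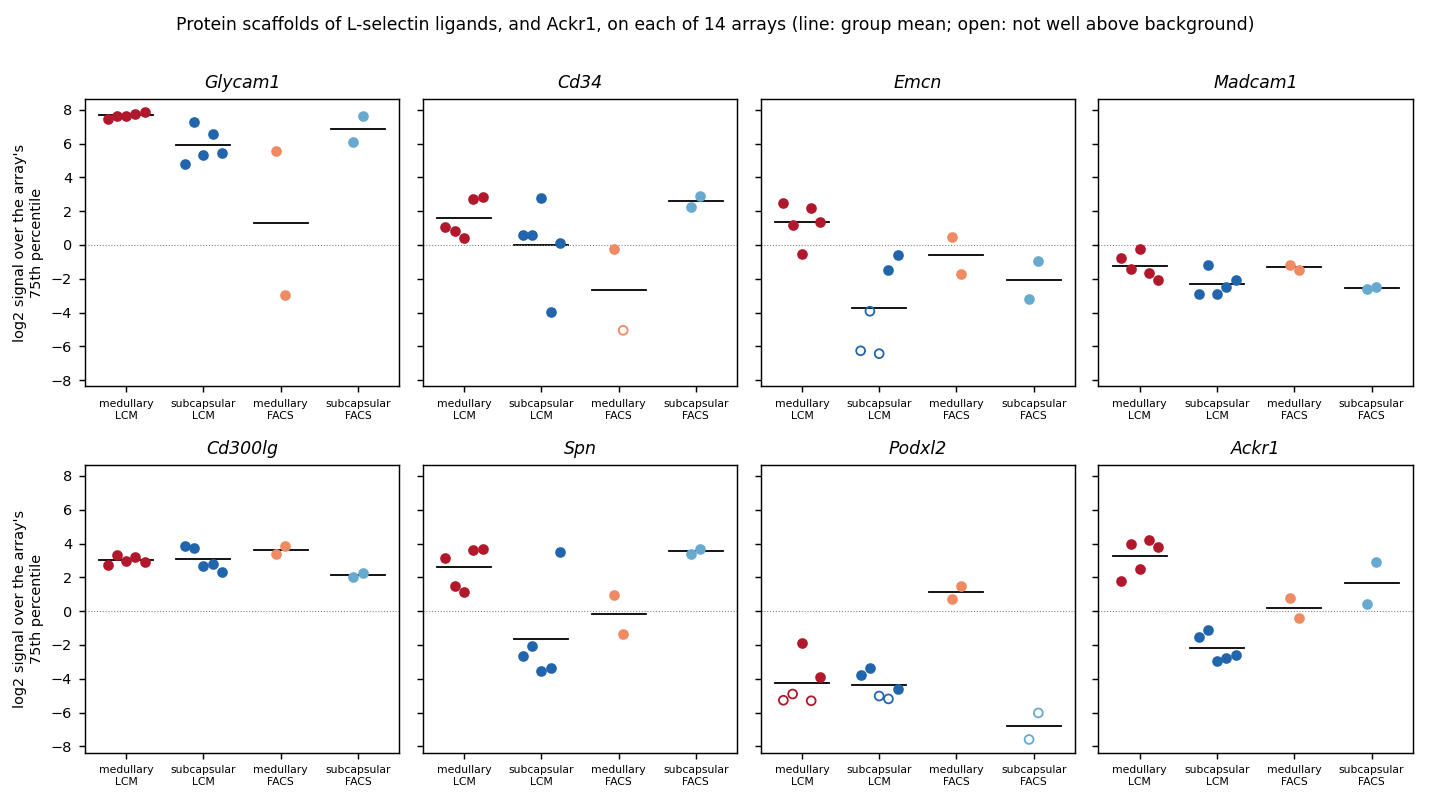
Log2 signal over the array's 75th percentile (vertical axis) of 7 scaffold genes and of Ackr1, a chemokine-binding receptor of venules, on each of 14 arrays, laid out as for the enzymes. Open circles mark values not well above background. Glycam1 is high in both LCM groups and low on 1 medullary FACS array, and Podxl2 is high only on the 2 medullary FACS arrays.

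Markers of other cells moved with Fut7 and Chst4 as follows. Of 12 genes of high endothelial and other venules, 3 of them also scaffolds (Glycam1, Madcam1 and Cd300lg) and none of them among the 8 enzymes, 6 of 11 tested were higher in medullary LCM samples and 1, Ackr1, was called. Ackr1 differed by 5.44 ± 0.65 (SE, limma adjusted p = 0.0163), and its interaction was −6.92 (limma adjusted p = 0.0179). Vwf, of venous endothelium, missed the threshold at 5.84 ± 1.16 (SE, limma adjusted p = 0.0972). In FACS 4 of 9 tested were higher in medullary samples and 5 lower, with none called. The summed level of the 12 genes was 242 to 353 on medullary and 124 to 383 on subcapsular LCM arrays, against 18.1 to 63.4 on medullary and 87 to 252 on subcapsular FACS arrays. Glycam1, at 7.48 to 7.88, carries this sum on medullary LCM arrays. On medullary FACS replicates 6 and 7 the sum follows Glycam1, at 5.55 and −2.94. Of 12 blood endothelial genes, 10 were higher in medullary LCM samples with none called, among them Esam (3.78, limma adjusted p = 0.053), and their summed level was 41.7 to 74.7 on medullary and 22.6 to 61.2 on subcapsular arrays. Macrophage genes went the other way in LCM, with 8 of 8 lower and a summed level of 74.5 to 168 on medullary and 315 to 1320 on subcapsular arrays. Lymphatic genes were higher for 3 of 10 and lower for 7, with none called. Neutrophil genes, listed because Fut7 and Fut4 also act in leukocytes, were higher in medullary LCM samples for 7 of 9 and lower for 2, with a median difference of 1.91, the highest of the lists tested in LCM, and none called. Among them Ngp, a granule protein, differed by 4.89 and Retnlg by 4.3 (limma adjusted p = 0.225 and 0.339), with 2 of 5 and 1 of 5 subcapsular arrays above background. Their summed level, 141 to 208 on medullary and 121 to 442 on subcapsular LCM arrays, is carried by Csf3r, the receptor for a granulocyte growth factor, which averaged 7.41 and 7.7 on the log2 scale there. T cell genes were higher for 6 of 8, with a median of 0.91, none called, and sums of 25.8 to 36.9 on medullary and 20.3 to 88.6 on subcapsular LCM arrays. B cell genes were lower for 7 of 7, with none called and sums of 117 to 184 on medullary and 199 to 584 on subcapsular LCM arrays.

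Other markers moved with the fall of Fut7 in medullary FACS relative to medullary LCM. The summed level of blood endothelial genes was 7.51 to 15.3 on medullary FACS arrays, against 41.7 to 74.7 on medullary LCM arrays. The brightest of them on medullary LCM arrays, Plvap and Ly6c1, averaged 4.6 and 3.51 there and −2.22 and −0.29 on medullary FACS arrays. Nos3 and Aplnr rose instead, from −4.15 and −0.81 to 0.86 and 0.88. Kdr (0.53 and 0.56) and Flt1 (−2.43 and −2.46) stayed level, and the rest of that list averaged lower in medullary FACS. These genes are named after their values were seen. The summed level of lymphatic genes was 2.45 to 2.83 on medullary FACS arrays, against 20.1 to 44.9 on medullary LCM arrays. On medullary LCM arrays the lymphatic sum is carried by Pecam1, which averaged 4.82 there and −3.6 on medullary FACS arrays. Prox1, Pdpn and Reln went the other way, from −3.07, −2.94 and −5.03 on medullary LCM to −0.81, −0.92 and −3.03 on medullary FACS arrays. The other genes of the lymphatic list averaged lower on medullary FACS arrays. Across FACS minus LCM over both sinuses, 3 venule genes (Enpp2, Lifr and Icam1), 3 macrophage genes (Msr1, Lyz2 and Timd4), 4 fibroblastic reticular genes (Col1a2, Col3a1, Pdgfra and Dcn), 1 blood endothelial gene (Plvap) and 1 gene of the lymphatic list (Pecam1, a marker of all endothelium) were called lower, and 4 salivary gland or epithelial genes were called higher. These genes are named because they were called, after their values were seen. Pecam1 fell in the medullary sinus only, since on subcapsular arrays it averaged 4.62 in FACS and 4.18 in LCM. The part of any of these cells in the enzyme results was not tested.

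The remaining genes of the pathway gave no call in LCM. Of 24 other enzymes of the same families, 14 were tested in LCM, 6 higher and 8 lower, with a median of −0.78 and none called. St6gal1, which caps chains with sialic acid in another linkage, differed by −0.94, and B3gnt2, a chain elongating enzyme, by −1.13 (limma adjusted p = 0.502 and 0.523). Of 13 genes for the O-glycan core and the N-acetyllactosamine chain, 9 of 12 tested were higher and 3 lower, and of 17 genes for making and moving the sugar and sulfate donors, 8 of 16 were higher and 8 lower, with none called in either list. The medians were 0.78 and −0.04.

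In FACS both of these lists held more genes lower than higher in medullary samples, and no gene was called. Of the core and chain genes 3 of 13 were higher and 10 lower in medullary samples, with a median of −2.4, and of the donor genes 3 of 15 were higher and 12 lower, with a median of −3.82, or −3.57 with 3 genes at their bound, against 0.73 over all genes. Galnt1, which starts O-glycans, had a medullary FACS signal lower by a factor of at least 161, and C1galt1, which makes their common core, by at least 21.9 (each with a limma adjusted p of 0.0647). Slc35a1, the Golgi transporter of CMP-sialic acid, was lower by a factor of at least 13.9 (limma adjusted p = 0.0684), and Slc35b3, a transporter of the sulfate donor, by at least 66.5 (limma adjusted p = 0.0647). None of these 4 was above background on either medullary FACS array, and all 4 were on both subcapsular FACS arrays. Across FACS minus LCM, as the mean of both sinuses, Galnt1 and Slc35a1 were called lower in FACS (limma adjusted p = 0.00542 and 0.00463), and Slc35a3, a transporter of UDP-N-acetylglucosamine, fell by 2.18 on the log2 scale (limma adjusted p = 0.0402). St3gal5, whose product makes gangliosides, and Gcnt3, a relative of Gcnt1, were called higher in FACS (limma adjusted p = 0.0187 and 0.0335), the last 2 named after their values were seen. Gcnt3 was above background on 0 of 10 LCM arrays and on 3 of 4 FACS arrays, and St3gal5 on 4 of 4 FACS arrays, 1 of 5 medullary LCM arrays and 2 of 5 subcapsular LCM arrays. No size is given for Galnt1, Slc35a1, St3gal5 and Gcnt3, since each of these differences rests on arrays where the probe was not well above background. On subcapsular arrays Slc35a1 averaged −0.77 in FACS and −0.74 in LCM, so its call rests on the medullary FACS arrays. Slc35a3 averaged 1.51 in FACS and 2.07 in LCM on subcapsular arrays, against −3.36 and 0.44 on medullary ones. Galnt1 averaged 2.97 in subcapsular FACS and 4.06 in subcapsular LCM.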

How the data were processed

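Per the file headers, the authors' scanner files came from Agilent Feature Extraction 10.7.3.1, which gave a background-adjusted intensity per spot, with no scaling between arrays, and probe positions on mm9. The authors also deposited log2 values, whose method is not given in the sources used here and whose median is 5.43 on each of 14 arrays. Their scaling is unknown, and they served as an alternative.

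Intensities were log2 transformed and the array's 75th percentile over non-control probes was subtracted. Outlier spots, so called in the files, were dropped, and a probe's spots were averaged. Genes were tested with limma 3.58.1 under R 4.3.3 (Benjamini-Hochberg adjusted p under 0.05, files read through data.table, release 1.17.8). LCM needed a probe well above background on 3 of 5 arrays of a sinus, FACS on both. The 14-array fits estimated 4 means and weighted arrays by isolation. The script was tested on simulated data. A gene dim on all arrays of a group has only a minimum fold, taken against the lowest signal called above background. Probes took symbols through RefSeq accessions where these matched (27235 of 55681). Muc19 was not matched.

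All 8 members were named with every value. From other lists, scaffolds and up to 4 genes with the lowest p per sinus comparison were named, with exceptions stated. Members and lists were chosen with earlier results of these data known. Figures used matplotlib 3.10.9 in Python 3.11.15.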

Additional observations from a re-analysis of the deposited data

Results flagged for a closer look

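Of 16 groups of 5 LCM values, 5 held a sample set apart from its neighbours by Dixon's test, where chance gives about 1 in 20. For Fut7, medullary replicate 5 was the highest of its group at 5.24, and subcapsular replicate 2 was the highest of its group at −1.89. Before scaling, the Fut7 intensity was 11.9, 32.3, 27.2, 19.9 and 33.4 in subcapsular LCM replicates 1 to 5, highest in replicate 5. The 75th percentiles of these arrays were, in the same order, 167, 120, 335, 267 and 395, lowest in replicate 2. The part of the scaling in the flag of subcapsular replicate 2 was not tested. Chst4 was lowest in medullary replicate 1, at 0.4. B3gnt3 was lowest in medullary replicate 4, at −2.35. St3gal4 was lowest in subcapsular replicate 1, at −4.45, where its probe was not well above background.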

How the results depend on the processing

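Fut7 kept its LCM direction under all 25 alternatives and its call under 23, and Chst4 kept its direction under all 24 and its call under 6. Of tested genes, 0.175% were called in LCM as reported and 0.0884% to 0.394% with 1 array left out, with 1 to 2 of the 8 enzymes called. The share moved by over 1.5 times without medullary replicate 2 (0.0884%), 4 (0.368%) or 5 (0.394%) or subcapsular replicate 5 (0.37%). It was 0.0292% with normexp, 0.0548% with quantile normalization, 0.0585% with the deposited values, 0.837% with the percentile over always-detected probes, 0.508% with the stricter filter, 0.464% with slide as a block, 0.989% on slide 1 and 0.0512% with row as a block. Of the 8 enzymes 1 was called with normexp, quantile, deposited values, no filter, all arrays in 1 fit, slide, slide 1, row or the other probe. In FACS the share of 0% became 6.51% with trend and robust moderation and 16.2% with 14 arrays in 1 fit. For FACS minus LCM it was 2.04% to 5.48% with 1 array left out (2.06% and 2.04% without subcapsular FACS replicate 6 or 7, against 3.86% as reported, with 0 to 1 enzymes), 2.52% without array weights and 0.627% with slide as a block, and 1 enzyme was called with normexp, quantile or deposited values. On slide 2, which held no subcapsular LCM array, the fit used medullary arrays only and the share was 0%. That fit is no alternative to the mean of both sinuses. For the interaction it was 1.29% as reported, 4.18% or 3.55% without medullary FACS replicate 6 or 7 and 0.323% or 0.0355% without subcapsular FACS replicate 6 or 7 (0 to 1 enzymes). Other values were 2.3% with normexp, 3.88% with quantile, 3.83% with deposited values, 0.734% without a filter, 2.06% with the stricter one, 0.361% without weights and 0.155% with slide as a block, and 1 enzyme was called with normexp, quantile, the other percentile, deposited values, mean of probes, the stricter filter or the other probe. Within the medullary sinus, FACS minus LCM gave 6.53% as reported, 4.16% (without subcapsular FACS replicate 7) to 7.33% with 1 array left out (1 to 2 enzymes), 3.79% without weights, 2.17% with slide as a block, 0% and 0 enzymes on slide 2, and 2 enzymes with normexp. The cause of these moves was not tested.

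Same-numbered samples did not deviate together (correlations −0.02 to 0.02). Samples amplified from few cells can share an animal without showing it in such a correlation, and FACS has few arrays per sinus. Whether the replicate number pairs samples is therefore not settled by these values. With the replicate block, 0 genes and 0 enzymes were called in LCM, and the adjusted p was 0.162 for Fut7 and 0.247 for Chst4. In FACS the replicate block left 0 calls, and as a random block it gave 3.97% of genes in FACS minus LCM and 1.21% in the interaction.

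Sign changes, 53 of 972 member values, touched no difference that was called. In LCM St3gal6 was −0.31 with normexp, −0.12 with quantile and with deposited values, −0.43 with slide as a block and on slide 1, and −0.66 to 0.98 with 1 array left out, and Chst2 was 0.26 with the other percentile, 0.43 with the mean of probes, 0 with row as a block and 1.33 with the other probe. In FACS Fut7 was −1.78 with the mean of probes, −4.31 with the other probe and −1.06 to 2.54 with 1 array left out, Fut4 was −2.19 with the other probe, and Gcnt1 was −1.84 to 0.96, B3gnt3 −0.16 to 1.6 and Chst4 −0.67 to 2.38 with 1 array left out. In FACS minus LCM Gcnt1 was 0.18 with quantile and with deposited values, 0.19 with the other percentile, 0.25 with the mean of probes, 0.56 on slide 2, 0.55 with the other probe and −0.75 to 0.65 with 1 array left out. Chst2 was −0.02 with the mean of probes, −0.83 with slide as a block, −0.14 with the other probe and −0.19 to 0.38 with 1 array left out. St3gal6 was −1.03 with slide as a block and −0.84 to 0.89 with 1 array left out, and Fut4 was −0.17 to 1.9 with 1 array left out. The 53 also count the slide 2 values of Gcnt1 (0.56) and St3gal6 (−2.06). Those compare medullary arrays only, so they are no reversal of the mean of both sinuses. Their signs match the medullary differences with all arrays, 0.55 and −1.27. In the interaction Gcnt1 was −1.06 and Fut4 −1.57 with the other probe, and Gcnt1 −0.2 to 2.6 with 1 array left out. Within the medullary sinus, Gcnt1 was −0.85 to 1.96 and St3gal6 −3.01 to 0.46 with 1 array left out. These directions are not settled, and the 2 FACS arrays per sinus limit the precision there.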
